A study of Mus musculus with 30 samples.

Results

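The genes described here are 33 interferon-stimulated genes (ISGs), a list of textbook targets of type I interferon chosen by name, with no threshold on their values. All 33 were measured, out of 25210 genes or unnamed transcripts tested on the array. They were represented by 43 probes, of which 42 passed the filter on dim probes, and the brightest kept probe stood for each gene. Of the 33 genes, 28 were well above background on all 30 arrays, and the other 5 were Mx1 (28 arrays), Ifih1 (29), Herc6 (29), Eif2ak2 (26) and Ifi44 (13).

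The RNA came from PBMC, the mononuclear leukocytes of peripheral blood, of female C57BL/6 mice aged 6 weeks, taken as 1 mouse per array from the study's design of 30 mice. All mice were anesthetized with xylazine and ketamine and bled through the eye vein, and the cells were taken from a Ficoll gradient. The treated mice received oleic acid (OA) into the tail vein at 1.2 µl per g body weight, a model of acute lung injury. The injected volume was 200 µl, and the controls received 200 µl of physiological serum. At 1 h and 1.5 h there were 3 serum and 3 OA arrays each, at 3 h, 18 h and 24 h 2 serum and 3 OA arrays each, and at 4 h 1 serum and 2 OA arrays. All groups had an injection, so nothing here measures the level in an untouched mouse. Values are log2 levels relative to the 75th percentile of each array, differences are OA minus serum on the log2 scale with the standard error (SE) of the limma model, and p values were adjusted by Benjamini-Hochberg over every gene tested. A gene is called when its adjusted p is under 0.05. A level is relative to its own probe, so levels of different genes are not compared.

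Type I interferons bind the receptor IFNAR, whose JAK1 and TYK2 kinases phosphorylate STAT proteins, STAT2 among them. These join IRF9 to form the factor ISGF3, which binds the interferon-stimulated response element in the promoters of ISGs. Their products sense viral RNA, degrade RNA, block translation, tag proteins with ISG15 or trap virions, and blood leukocytes, above all monocytes and plasmacytoid dendritic cells, are known to carry this programme at a basal level.

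Promoter windows from RefSeq (GRCm38.p6, 250 bases before to 50 bases after a start site) were found for 25 of the 33 genes. The core of the response element, searched as GAAA, any 2 bases and GAAA on both strands with overlapping matches counted, was present in 14 of these 25 genes (56%) and in 3.99% of 27025 genes with such windows. The palindrome TTCNNNGAA, the core of a gamma-activated site, was present in 6 of 25 (24%) and in 9.55% of all genes. A match is a string of letters and no measured site. Windows of 6 genes are shown because results below turn on them: Oas1a, Eif2ak2 and Gbp3 were among the genes called at 24 h, and Isg15, Rsad2 and Isg20 followed erythroid markers. They have matches to this core in capitals and are written along the strand of the gene, so a core on the other strand reads TTTC, any 2 bases and TTTC.
Oas1a, chr5:120907476-120907775, minus strand: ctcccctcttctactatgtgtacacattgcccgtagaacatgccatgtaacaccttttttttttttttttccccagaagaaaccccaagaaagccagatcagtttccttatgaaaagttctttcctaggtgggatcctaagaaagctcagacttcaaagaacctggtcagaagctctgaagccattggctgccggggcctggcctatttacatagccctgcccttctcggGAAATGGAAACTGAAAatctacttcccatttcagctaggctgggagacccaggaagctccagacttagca
Eif2ak2, chr17:78882523-78882822, minus strand: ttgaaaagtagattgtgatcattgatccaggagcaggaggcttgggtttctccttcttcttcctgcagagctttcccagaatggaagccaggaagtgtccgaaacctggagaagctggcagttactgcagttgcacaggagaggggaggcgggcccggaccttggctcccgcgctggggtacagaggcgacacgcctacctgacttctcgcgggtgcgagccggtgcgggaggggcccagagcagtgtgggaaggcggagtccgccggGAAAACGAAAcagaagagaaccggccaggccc
Gbp3, chr3:142559794-142560093, plus strand: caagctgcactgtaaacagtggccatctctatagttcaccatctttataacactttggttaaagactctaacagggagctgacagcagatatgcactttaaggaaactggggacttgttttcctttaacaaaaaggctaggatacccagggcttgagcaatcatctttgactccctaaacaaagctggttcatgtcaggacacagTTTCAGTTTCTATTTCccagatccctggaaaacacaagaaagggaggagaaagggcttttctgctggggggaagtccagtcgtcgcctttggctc
Isg15, chr4:156200769-156201068, minus strand: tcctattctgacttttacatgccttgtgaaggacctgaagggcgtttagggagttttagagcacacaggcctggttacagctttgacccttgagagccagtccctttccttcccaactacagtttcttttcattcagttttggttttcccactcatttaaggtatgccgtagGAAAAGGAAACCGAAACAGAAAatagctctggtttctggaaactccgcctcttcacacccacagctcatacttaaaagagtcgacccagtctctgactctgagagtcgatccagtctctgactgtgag
Rsad2, chr12:26456403-26456702, minus strand: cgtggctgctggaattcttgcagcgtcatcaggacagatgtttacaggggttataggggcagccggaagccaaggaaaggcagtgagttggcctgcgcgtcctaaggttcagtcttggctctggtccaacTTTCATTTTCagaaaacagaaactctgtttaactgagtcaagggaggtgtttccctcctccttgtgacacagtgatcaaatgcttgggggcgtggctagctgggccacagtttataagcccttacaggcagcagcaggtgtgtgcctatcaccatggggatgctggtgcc
Isg20, chr7:78913174-78913473, plus strand: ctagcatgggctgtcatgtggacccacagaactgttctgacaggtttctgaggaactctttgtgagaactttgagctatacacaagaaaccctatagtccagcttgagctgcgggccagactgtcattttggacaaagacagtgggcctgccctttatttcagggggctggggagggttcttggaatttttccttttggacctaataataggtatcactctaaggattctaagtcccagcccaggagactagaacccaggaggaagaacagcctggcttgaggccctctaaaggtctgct
Oas1a and Gbp3 held 2 overlapping matches each, Isg15 held 3 in a row, Eif2ak2 and Rsad2 held 1, and the Isg20 window held none. Isg20 had 3 windows and Gbp3 had 2, and the first is shown; the others held no match.

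The array files place each probe on the mouse build mm9, so probe positions are not set against these windows. The probe of Oas1a lies at chr5:121346735-121346794, that of Eif2ak2 at chr17:79252168-79252227, that of Gbp3 at chr3:142236032-142236091, that of Isg15 at chr4:155573649-155573708, that of Rsad2 at chr12:27127859-27127918 and that of Isg20 at chr7:86065136-86065195. Which exon or untranslated part a probe covers was not analysed here.

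**Figure D1:**
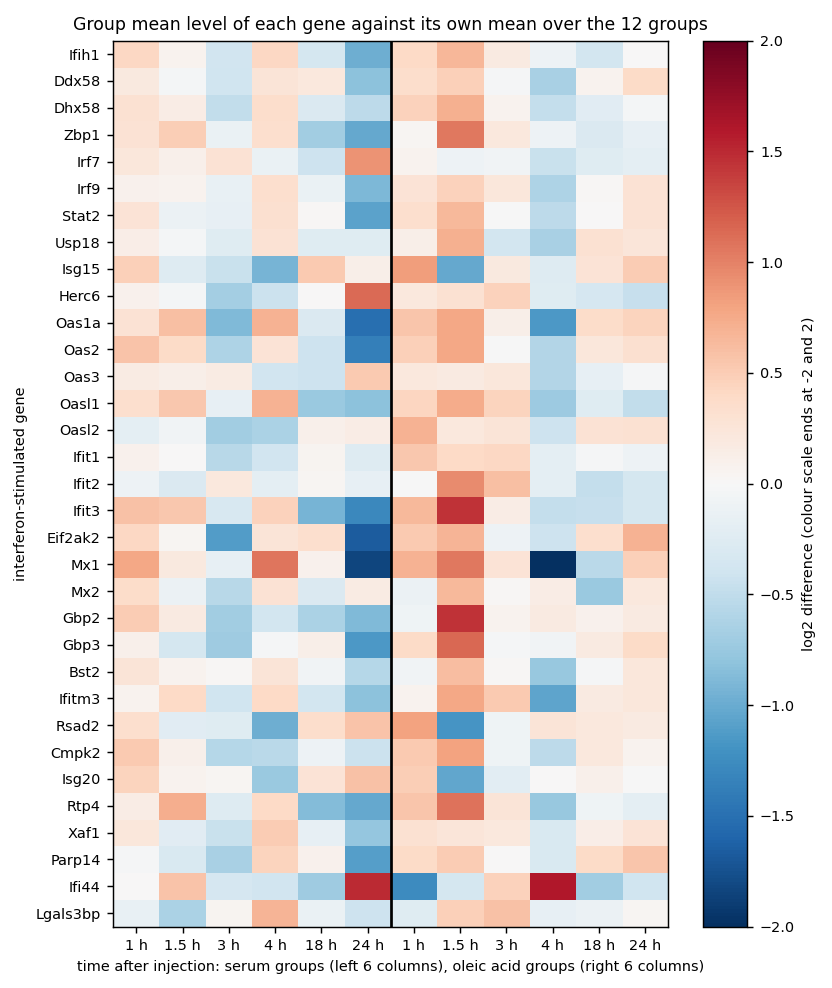
Each row is 1 of the 33 genes and each column a group, with the 6 serum groups left of the line and the 6 OA groups right of it; colour is the group mean minus the gene's own mean over the 12 groups, in log2. The serum 24 h column is low for most genes but high for some, Ifi44, Herc6, Irf7, Oas3 and Isg20 among them. The OA 1.5 h column is high for most genes but low for Isg15, Rsad2 and Isg20, and the OA 4 h column is low for most genes with Ifi44 high.

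Some arrays stood apart from the rest in all genes, not in ISGs alone. Of 30 arrays, 3 had a median correlation with the other arrays under 0.9: replicate 1 of serum at 24 h (0.797), replicate 2 of OA at 4 h (0.835) and replicate 3 of serum at 1.5 h (0.885). The arrays lay on 5 slides scanned on 2 days, and slide 5 held 5 OA arrays and no serum array. Both serum 24 h arrays lay on slide 1, which held no OA 24 h array. Markers of every blood cell type listed were detected, monocyte genes on all arrays with 9 of 10 measured, and so were those of erythroid cells (4 of 5 measured), platelets (5 of 5) and neutrophils (8 of 8), which the name PBMC does not cover. Of 4 lung epithelium markers 2 were measured, Scgb1a1 well above background on 27 arrays and Sftpc on 6. Their mean level was 2.96 and 2.06 on the serum 24 h arrays and 1.25 on the serum 4 h array, against a median of -2.88 over all arrays. In such bulk samples, fewer cells of a type and less RNA per cell cannot be told apart.

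The ISGs did not form 1 block across the 30 arrays. For 20 of the 33 genes the level followed the median of the other ISGs with a Pearson correlation of at least 0.7, led by Oas1a (0.916), which makes the 2-5A that activates RNase L. For 7 genes the correlation was under 0.2: Mx2, Oas3, Isg15, Isg20, Irf7, Rsad2 and Ifi44. The other 6 lay between (Oasl1, Oasl2, Ifit1, Ifit2, Herc6 and Lgals3bp). These correlations describe arrays that share a scaling and, within groups, a condition, and they carry no test.

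Genes of 1 family could be close or far apart. The 2-5A synthetases Oas1a and Oas2 correlated at 0.924 over the 30 arrays, while Oas2 and Oas3 correlated at 0.128 and Oasl1 and Oasl2 at 0.167. The dynamin-like GTPases Mx1 and Mx2 correlated at 0.193, and the guanylate-binding proteins Gbp2 and Gbp3 at 0.809. Oas3 instead followed Irf7, the factor that amplifies interferon production, at 0.893. Rsad2, which makes the antiviral nucleotide ddhCTP, and Cmpk2, a nucleotide kinase, are neighbours on chromosome 12 but correlated at only 0.129. Rsad2 correlated at 0.959 with Isg20, an exonuclease, and at 0.923 with Isg15, the ubiquitin-like modifier.

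Isg20, Rsad2 and Isg15 had their highest correlation, among 11 marker lists, with the erythroid markers (mean of 4, Alas2 and Hba-a1 among them). For Isg20 the Pearson correlation over the 30 arrays was 0.974 and Spearman's rho 0.977, and r was 0.968 without the 2 arrays with the most extreme marker level. For Rsad2 r was 0.967 and rho 0.965, with r of 0.954 without the 2 extreme arrays. For Isg15 r was 0.899 and rho 0.909, with r of 0.891 without them. Gene and markers share the array and its scaling. Each of these genes had a permutation p of 1e-05 for r and for rho, the smallest that 100000 permutations can give. The adjusted p was 0.000259 for r and 0.000403 for rho over 363 relations of 33 genes with 11 marker lists. The permutations shuffled all 30 arrays without regard to group or slide. The relation was also present within slides: r was 0.989, 0.974 and 0.864 for Isg20, Rsad2 and Isg15 over the 8 arrays of slide 1, and 0.952, 0.988 and 0.907 over the 8 arrays of slide 3. After group means were removed, r was 0.987, 0.984 and 0.943. Irf7 (r of 0.582, rho 0.608, adjusted p = 0.00593) and Oas3 (r of 0.48, rho 0.531, adjusted p = 0.0277) also had a positive relation over all arrays, but not on slide 3, where r was -0.0849 and -0.183. The second probe of Isg15 and that of Isg20 followed the first at 0.988 and 0.987.

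The level of Isg20 was 7.02, 8.69 and 10.07 on the 3 OA 18 h arrays, where the erythroid marker mean ran from 6.95 to 10.01. Rsad2 was 5.00, 6.81 and 8.80 on the same 3 arrays, and Isg15 was 5.13, 6.91 and 9.35. These 3 arrays thus held both the lowest and the highest value of Isg20 and of Isg15 over all 30 arrays. Oas1a, by contrast, was 3.88, 3.23 and 3.99 on these arrays and had a correlation of -0.268 with the erythroid markers (adjusted p = 0.265).

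**Figure D2:**
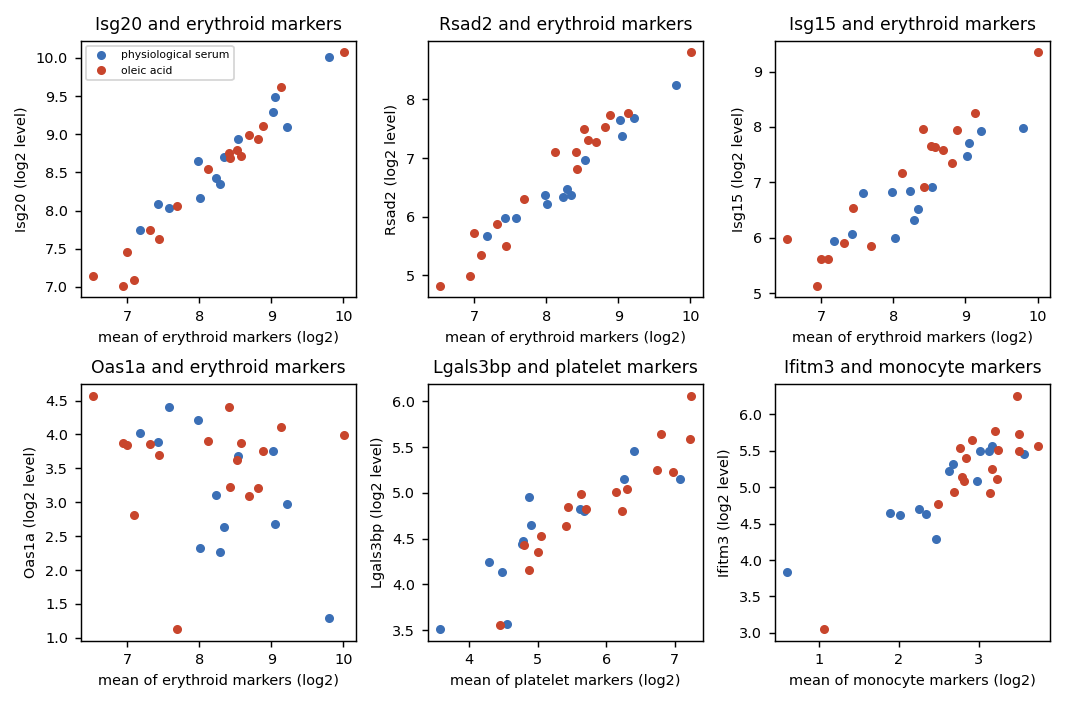
Each point is 1 of 30 arrays, with the log2 level of an ISG on the y axis and the mean log2 level of a marker list on the x axis, blue for serum and red for OA. Isg20, Rsad2 and Isg15 are higher where erythroid markers are higher in both treatments, Oas1a is not, Lgals3bp is higher where platelet markers are, and Ifitm3 where monocyte markers are, with 2 arrays far below the rest.

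Other ISGs followed other cell types. Lgals3bp, a secreted glycoprotein, correlated with platelet markers (mean of 5) at 0.898 (rho 0.924, 0.866 without the 2 extreme arrays, 0.854 on slide 1 and 0.901 on slide 3, adjusted p = 0.000259). Ifit2 did so at 0.757 (rho 0.773, 0.714 without the 2 extreme arrays, 0.886 on slide 1 and 0.798 on slide 3, adjusted p = 0.000403). Rtp4, a receptor chaperone, correlated with neutrophil markers (mean of 8) at 0.829 (rho 0.839, 0.814 without the 2 extreme arrays, 0.97 on slide 1 and 0.77 on slide 3, adjusted p = 0.000259). Oasl1, which represses translation of Irf7, did so at 0.751 (rho 0.767, 0.723 without the 2 extreme arrays, 0.939 on slide 1 and 0.678 on slide 3, adjusted p = 0.000259).

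Monocyte markers (mean of 9) had the largest number of positive relations, 21 of 33 genes with an adjusted p of r under the threshold, 14 of them also by rho, and were the list with the highest r for 18 genes. Ifitm3, which blocks virus entry at membranes, had r of 0.865 (rho 0.779, 0.764 without the 2 extreme arrays, 0.974 on slide 1 and 0.921 on slide 3). Irf9 had r of 0.839, but 0.572 without the 2 extreme arrays. The markers of plasmacytoid dendritic cells, a list that holds Bst2 itself, had 12 positive relations. Lung epithelium markers had 13 negative relations and endothelium markers 7. The share of all genes with such relations was not computed, so these counts have no background beside them. The lowest monocyte marker means, 0.61 and 1.07, were those of serum 24 h replicate 1 and OA 4 h replicate 2. Both arrays stood apart from the rest and had low ISG medians, 1.00 and 1.33.

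At 1 h after injection no ISG was called between OA and serum, and no gene of the array was (0% of 25210). None had an unadjusted p under 0.05, against 5.11% of all genes. All OA arrays lay above or below all serum arrays for none of the 33, against 3.27% and 8.19% of all genes. The difference was above 0 for 22 of 33, against 46.9% of all genes, with a median of 0.08 over the 33 genes and -0.05 over all genes. This direction depended on the scaling, since 10, 12 and 10 of 33 were above 0 with median scaling, quantile normalization and the authors' deposited table, with medians of -0.078, -0.089 and -0.083. The 3 with the smallest p were Ifi44, a protein of microtubule-like aggregates (-1.26, SE 0.70, adjusted p = 0.825), Oasl2 (0.90, SE 0.64, adjusted p = 0.825) and Mx2 (-0.48, SE 0.37, adjusted p = 0.825). Their groups overlapped, and Ifi44 was well above background on only 1 array of each group of 3, so the size of its difference is uncertain.

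At 1.5 h most ISGs were higher after OA in value, but none passed the adjusted threshold, and no gene on the array did (0%). The difference was above 0 for 28 of 33 genes, against 54.3% of all genes, with a median of 0.51 against 0.09. The median was 0.25 with median scaling and with quantile normalization and 0.23 with the values of the authors' deposited table, where 24 or 25 differences were above 0. All 3 OA arrays lay above all 3 serum arrays for 14 genes, against 18.5% of all genes, and below them for 3, against 7.02%. An unadjusted p under 0.05 was found for 5 genes, all higher, which is 15.2% of the list against 10.1% of all genes in both directions and 4.3% for higher genes.

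Gbp3, a guanylate-binding GTPase, was 1.13, 1.09 and 0.81 on the serum arrays and 2.19, 3.67 and 1.65 on the OA arrays at 1.5 h. The groups did not overlap, and OA replicate 2 stood above the other OA arrays. The difference was 1.5 (SE 0.50, n = 3 and 3, adjusted p = 0.47). Ifit2, which binds viral RNA and restrains translation, was 0.85, 0.91 and 0.11 with serum and 1.33, 2.89 and 1.34 with OA, again without overlap and with replicate 2 on top. The difference was 1.23 (SE 0.52, adjusted p = 0.47), and platelet markers, which Ifit2 followed, ran from 3.58 to 4.90 with serum and from 5.43 to 7.23 with OA; their part in the result was not tested. Parp14, an ADP-ribosyltransferase, was 2.21, 2.08 and 2.06 with serum and 2.76, 3.34 and 2.71 with OA (0.82, SE 0.35, adjusted p = 0.476). Lgals3bp (1.11, SE 0.49) and Stat2 (0.77, SE 0.36) made up the 5.

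OA 1.5 h replicate 2 was above both other arrays of its group for 31 of the 33 genes. Without it the median difference at 1.5 h was 0.31 and that of Gbp3 was 0.91. The share of all genes that were highest on this array was not computed.

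Isg20, Rsad2 and Isg15, the genes closest to the erythroid markers, were lower in value after OA at 1.5 h. Isg20 was 8.94, 8.65 and 8.09 with serum and 7.75, 7.15 and 7.45 with OA, so every OA array lay below every serum array (-1.11, SE 0.65, adjusted p = 0.528). Rsad2 (-0.96, SE 0.78) and Isg15 (-0.77, SE 0.77) were ordered in the same way. The erythroid marker mean was 7.43 to 8.54 with serum and 6.53 to 7.32 with OA, again without overlap, and its part in the result was not tested. Irf7 (-0.21, SE 0.59) and Oas3 (0.06, SE 0.60), which followed these markers less closely, had overlapping groups.

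At 3 h the picture was close to that at 1.5 h in size, with other genes in front and again no call (0% of all genes called). The difference was above 0 for 29 of 33 genes, against 58.4% of all genes, with a median of 0.56 against 0.13. The median was 0.32 without OA 3 h replicate 3 and 0.30 with the values of the authors' deposited table. All OA arrays lay above both serum arrays for 15 genes, against 17.7% of all genes, and below for 1, against 12.9%. An unadjusted p under 0.05 was found for 2 genes, against 7.76% of all genes.

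Eif2ak2 encodes PKR, the kinase that stops translation on double-stranded RNA. It was -2.28 and -2.39 with serum, the second not well above background, and -1.26, -1.38 and -1.34 with OA at 3 h, a difference of 1.01 (SE 0.47, adjusted p = 0.634). Under the alternative settings this difference ran from 0.09 to 1.07. Ifitm3 was 4.63 and 4.70 with serum and 5.56, 5.41 and 5.77 with OA, a difference of 0.91 (SE 0.44, adjusted p = 0.643). Ifit1, which binds non-self RNA, was -0.40 and 0.05 with serum and 0.30, 0.89 and 1.2 with OA (0.97, SE 0.54, adjusted p = 0.668). In each of the 3 genes the groups did not overlap, and the arrays of Eif2ak2 and Ifitm3 lay close together within each group. Irf7 lay the other way, at 3.39 and 3.05 with serum and 2.88, 2.98 and 2.71 with OA (-0.36, SE 0.66, adjusted p = 0.904). Monocyte markers were 2.26 and 2.34 with serum and 2.84 to 3.74 with OA at this time, and their part in the result was not tested.

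The 4 h comparison rests on 1 serum array and 2 OA arrays that disagreed, and no gene was called (0%). The difference was below 0 for 24 of 33 genes, against 55.8% of all genes, with a median of -0.68 against -0.17. An unadjusted p under 0.05 was found for 4 genes, all lower, against 10.4% of all genes in both directions and 5.2% for lower genes. Both OA arrays lay below the serum array for 16 genes, against 41% of all genes, and above it for 3, against 30.9%. OA 4 h replicate 2, 1 of the arrays that stood apart, was below replicate 1 for 31 of 33 genes, and without it the median difference was -0.01. With only replicate 2 the median was -1.29. The share of all genes that were lower on replicate 2 than on replicate 1 was not computed.

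Mx1, a dynamin-like GTPase, was 1.07 on the serum 4 h array and -0.30 and -3.89 on the OA arrays, the last not well above background. Its difference was -3.17 (SE 0.93, adjusted p = 0.42). Oasl1 was 3.31 with serum and 1.91 and 1.86 with OA, so here both OA arrays were alike (-1.43, SE 0.52, adjusted p = 0.458). Oas1a was 4.02 with serum and 3.21 and 1.13 with OA (-1.85, SE 0.74, adjusted p = 0.472). Ifi44 lay the other way, at -2.71 with serum and -1.0 and -0.48 with OA (1.97, SE 1.05, adjusted p = 0.489). Monocyte markers had the same order as most ISGs, with 3.57 on the serum array and 2.69 and 1.07 on the OA arrays, and their part in the result was not tested.

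At 18 h no ISG was called, nor was any gene on the array (0%), and none had an unadjusted p under 0.05, against 1% of all genes. The difference was above 0 for 21 of 33 genes, against 41.1% of all genes, with a median of 0.06 against -0.06. All OA arrays lay above both serum arrays for 6 genes and below for 1, against 2.67% and 4.22% of all genes. Rtp4 was 2.73 and 3.44 with serum and 3.27, 4.14 and 4.19 with OA (0.78, SE 0.52, adjusted p = 1). Usp18, the protease that removes ISG15 and damps interferon signalling, was 0.47 and 0.36 with serum and 0.98, 0.54 and 1.41 with OA, without overlap (0.56, SE 0.41, adjusted p = 1). Oas2 was 2.16 and 1.96 with serum and 2.74, 2.55 and 2.81 with OA, also without overlap (0.64, SE 0.49, adjusted p = 1). Mx1 lay the other way (-0.62, SE 0.69, adjusted p = 1).

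At 24 h 10 of 33 ISGs were called, all 10 higher after OA. This is 30.3% of the list, and 31.5% of all genes were called at 24 h, 15.6% higher and 15.9% lower, so the share called was near the background. The difference was above 0 for 26 genes, against 51.1% of all genes, with a median of 0.81 against 0.05. At an unadjusted p under 0.05 there were 14 ISGs, or 42.4%, against 47.1% of all genes. All OA arrays lay above both serum arrays for 19 genes and below them for none, against 27.5% and 28.8% of all genes. With arrays scaled to the median of always-detected probes, the calls were 6 higher and 2 lower (Herc6 and Ifi44), and 17 differences in place of 26 were above 0, while the median of all genes moved to -0.55 and 1401 genes in all were called higher and 5220 lower. The member median then stood 0.76 above that of all genes, as it did in the main scaling, but 0.10 above it after quantile normalization.

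By role, 4 of 8 sensors and signal factors were called higher at 24 h, 2 of 5 relatives of the 2-5A synthetases, 1 of 4 among the IFIT proteins and PKR, 2 of 4 GTPases, 1 of 10 other effectors and 0 of 3 in the ISG15 pathway. These are counts of few genes, and 15.6% of all genes were called higher. Eif2ak2 was -3.73 and -2.06 with serum, neither well above background, and -0.59, -0.42 and -0.57 with OA. In the main scaling it was at least 1.92-fold higher with OA, with a fitted difference of 2.37 (SE 0.47, adjusted p = 0.0119). That bound takes the lowest signal well above background on each serum array as the level there. With normexp background correction the difference of Eif2ak2 was 0.57, which is below that bound. Mx1 was -2.61 and -1.07 with serum, the first not well above background, and 0.45, 0.30 and 0.66 with OA, a difference of 2.31 (SE 0.69, adjusted p = 0.0243). Both serum arrays lay below all OA arrays in both genes, and the 3 OA arrays were close together.

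Oas1a was 1.29 and 2.33 with serum and 3.76, 3.69 and 3.87 with OA, a 3.90-fold difference (1.96, SE 0.55, adjusted p = 0.0212). Oas2 was 0.74 and 1.5 with serum and 3.06, 2.79 and 2.54 with OA (1.68, SE 0.49, adjusted p = 0.023). Neither group pair overlapped. The other synthetases did not follow, with 0.32 for Oasl1 (SE 0.39), 0.16 for Oasl2 (SE 0.71) and -0.55 for Oas3 (SE 0.67), none of them called.

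Parp14 was 0.67 and 1.98 with serum and 3.16, 3.06 and 2.73 with OA (1.66, SE 0.40, adjusted p = 0.0161). Stat2, a subunit of ISGF3, was 0.77 and 1.81 with serum and 2.62, 2.69 and 2.61 with OA (1.35, SE 0.41, adjusted p = 0.025). Its partner Irf9 was 1.75 and 3.24 with serum and 3.86, 3.67 and 3.53 with OA (1.19, SE 0.43, adjusted p = 0.0411). In all 3 the OA arrays lay above both serum arrays, and serum replicate 1 was the lower.

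The cytosolic RNA sensors Ddx58, known as RIG-I, and Ifih1, known as MDA5, were both called. Ddx58 was 1.53 and 3.13 with serum and 3.46, 3.57 and 3.57 with OA (1.21, SE 0.38, adjusted p = 0.0283). Ifih1 was -0.69 and -1.28 with serum, the second not well above background, and 0.15, 0.11 and -0.23 with OA (0.99, SE 0.35, adjusted p = 0.0379). The third sensor of the family, Dhx58, was not called (0.49, SE 0.32, adjusted p = 0.227), although its groups did not overlap. Gbp3, the last of the 10, was -0.66 and 1.09 with serum and 1.46, 2.02 and 1.75 with OA (1.53, SE 0.56, adjusted p = 0.0428).

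Among genes that were not called, Ifi44 had the largest difference the other way, with 0.19 and -1.88 with serum and -3.41, -1.87 and -2.92 with OA (-1.89, SE 0.78, adjusted p = 0.0659). Its groups overlapped, and only 1 of the 2 serum arrays and 1 of the 3 OA arrays were well above background. Herc6, the main ligase of Isg15 in mice, was -1.24 and 2.62 with serum and -0.88, -0.51 and -1.33 with OA (-1.59, SE 0.71, adjusted p = 0.082). The high value stood on 1 serum array alone, and the second kept probe of Herc6, which followed the first at 0.13, gave 0.46. Isg15 itself was 7.98 and 5.99 with serum and 7.94, 6.53 and 7.64 with OA (0.39, SE 0.87, adjusted p = 0.737), and Rsad2 (-0.39) and Isg20 (-0.60) were not called either.

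Of the remaining effectors and sensors, Xaf1, a partner of the apoptosis inhibitor XIAP, came closest to the threshold at 24 h, with 1.23 and 1.73 with serum and 2.87, 2.39 and 2.33 with OA (1.05, SE 0.40, adjusted p = 0.0506). Gbp2 was 1.00 and 2.51 with serum and 2.87, 2.89 and 2.69 with OA (1.06, SE 0.73, adjusted p = 0.251), again without overlap. Zbp1, a sensor of left-handed nucleic acid, was 1.38 and 2.74 with serum and 2.56, 3.02 and 3.17 with OA (0.86, SE 0.52, adjusted p = 0.196). Bst2, known as tetherin, which holds budding virions at the cell surface, was 2.06 and 3.64 with serum and 3.45, 3.84 and 3.70 with OA (0.81, SE 0.41, adjusted p = 0.123). In Zbp1 and Bst2 serum replicate 2 lay within the OA values. At 1.5 h Gbp2 was 2.87, 2.69 and 2.87 with serum and 3.70, 5.70 and 2.83 with OA, where OA replicate 2 held the highest value of all 30 arrays (1.27, SE 0.65, adjusted p = 0.505).

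**Figure D3:**
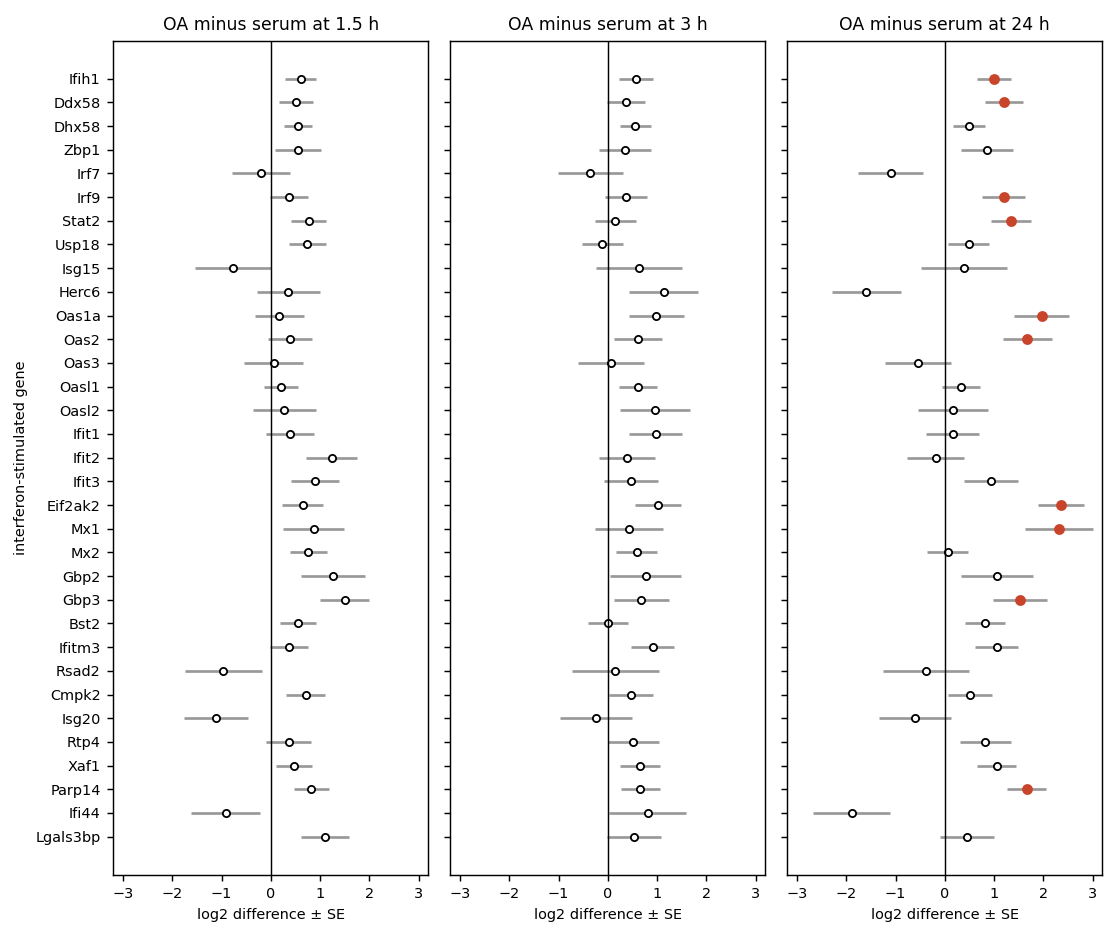
Points are the log2 difference of OA minus serum for each ISG with its SE, at 1.5, 3 and 24 h; filled red points are the 10 genes called at 24 h, and no gene was called at 1.5 or 3 h. The right panel shows the called genes between 0.99 and 2.37, with Herc6 and Ifi44 at -1.59 and -1.89.

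The 24 h calls depended on single arrays and on the slide. Without serum 24 h replicate 1, 1 ISG was called, Herc6, and it was lower (-3.52), and 39 genes were called in all. The 10 called genes then kept their direction, for example with 1.53 for Eif2ak2, 1.44 for Oas1a and 0.40 for Ddx58. Of all 33 differences 4 turned: Oas3 to 0.26, Isg20 to 0.33, Rsad2 to 0.63 and Lgals3bp to -0.34. Serum replicate 2, the array that remained, lay below every OA array for 22 of 33 genes, against 31.7% of all genes, and serum replicate 1 for 23, against 46.1%. Without OA 24 h replicate 1 only Eif2ak2 was called, among 141 genes in all. Without OA replicate 2 or replicate 3 there were 5 ISGs each time, among 3598 and 4410 genes, and without serum replicate 2 there were 14, among 13030 genes. With slide as a fixed block no ISG was called, and 7 genes were called in all. Since no slide held both treatments at 24 h, there is no within-slide value.

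Other measures moved with the 24 h difference. At this time 15.6% of all genes were called higher and 15.9% lower, and 47.1% had an unadjusted p under 0.05. Monocyte markers averaged 0.61 and 2.01 on the serum arrays and 3.16 to 3.50 on the OA arrays, and 5 of their 9 measured genes were called higher. B cell markers averaged 4.06 and 5.77 with serum and 5.93 to 6.39 with OA, with 2 of 5 called higher. Across arrays 15 ISGs had a positive relation with B cell markers, a count without a share over all genes. Plasmacytoid dendritic cell markers ran from 1.59 to 2.43 with serum and from 2.60 to 2.92 with OA, with 1 of 7 called higher, while T and NK cell markers overlapped between the groups with none called (2 of 5 in each list at an unadjusted p under 0.05). Lung epithelium markers averaged 2.96 and 2.06 with serum and -3.88 to -2.92 with OA, and both measured genes were called lower. The mean signal of long intergenic RNA probes relative to always-detected probes was -2.95 and -4.29 with serum and -5.83 to -5.05 with OA. Their part in the ISG differences was not tested, and treatment and slide cannot be told apart at 24 h.

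**Figure D4:**
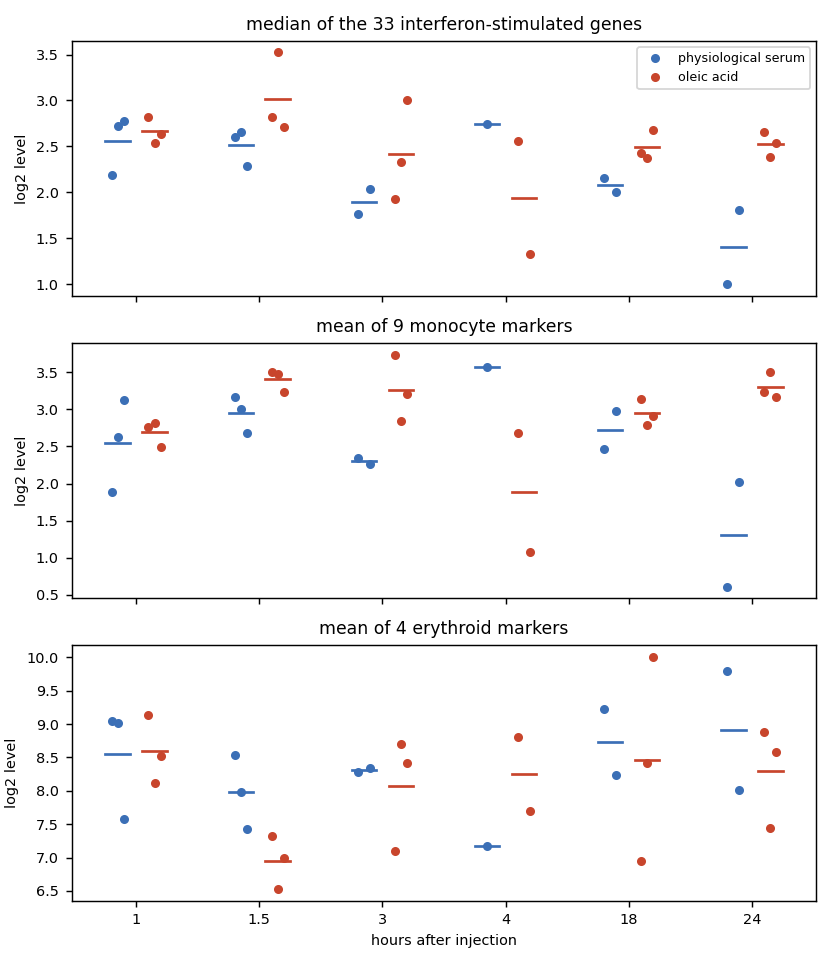
Each point is 1 array and each bar a group mean, by hours after injection, blue for serum and red for OA; the panels give the median log2 level of the 33 ISGs, the mean of 9 monocyte markers and the mean of 4 erythroid markers. The ISG median is lowest on serum 24 h replicate 1 (1.00) and highest on OA 1.5 h replicate 2 (3.52), and the monocyte panel has its lowest points on serum 24 h replicate 1 and OA 4 h replicate 2.

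Within slides, at the other times, the member median difference of single arrays could be read. It was 0.34 at 1 h on slide 1 (1 OA and 2 serum arrays, all genes -0.024), 0.93 and 0.13 at 1.5 h on slides 3 and 4 (all genes -0.099 and 0.33, so the ISGs lay below the rest on slide 4), 0.40 at 3 h on slide 1 (all genes -0.043), -1.29 at 4 h on slide 3 (all genes -0.38) and 0.12 at 18 h on slide 2. Apart from the 1 h value, each compares 1 OA array with 1 serum array.

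Over the 6 times together the mean difference was above 0 for 27 of 33 ISGs, against 47.8% of all genes, with a median of 0.22, and none was called (1 gene of all tested was, 0.00397%). The smallest p values were those of Parp14 (0.52, SE 0.17, adjusted p = 0.312), Eif2ak2 (0.58, SE 0.20, adjusted p = 0.312) and Gbp3 (0.67, SE 0.23, adjusted p = 0.312), which also had an unadjusted p under 0.05, as 14.7% of all genes did. Irf7 was furthest the other way (-0.33, SE 0.28, adjusted p = 0.515). This mean shares its arrays with the comparisons at single times.

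Whether the OA effect differed between times was tested directly. The late effect (18 and 24 h) minus the early effect (1 to 4 h) was positive for 22 of 33 ISGs, against 55.4% of all genes, with a median of 0.39, and none was called (0% of all genes). With median scaling 18 were positive with a median of 0.0985, and the median was 0.24 without serum 24 h replicate 1 and 0.63 without serum 24 h replicate 2. An unadjusted p under 0.05 was found for 6 ISGs, against 14.3% of all genes. Oas1a (1.41, SE 0.48, adjusted p = 0.247) and Oas2 (1.15, SE 0.43, adjusted p = 0.272) had the smallest p, followed by Herc6 in the other direction (-1.42, SE 0.62, adjusted p = 0.319). The F test over the 6 effects called no ISG (0.00794% of all genes called) and gave the smallest adjusted p for Mx1 (0.207). At an unadjusted p under 0.05 it had 7 ISGs, against 16.8% of all genes.

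ISG values were lower at 3 and 4 h than before in both treatments, without a call. From 1 and 1.5 h to 3 and 4 h, averaged over serum and OA, the level was lower for 31 of 33 ISGs, against 44.5% of all genes, with a median of -0.39 against 0.05. None was called, and 0.238% of all genes were. An unadjusted p under 0.05 was found for 11 ISGs, all lower, which is 33.3% of the list against 12% of all genes and 6.12% for lower genes. The count lower was 30 or 31 under each of the other scalings tried. Serum alone had 28 of 33 lower and OA alone 28 of 33 lower. For counts and medians within a treatment, here and below, no value over all genes was computed. In serum this lay at 3 h (median -0.59), while the single 4 h array had the highest ISG median of the serum groups, 2.75, against 2.56 at 1 h. With OA 24 of 33 were lower at 3 h alone (median -0.24, against -0.56 with 4 h included). The OA 4 h arrays had ISG medians of 2.55 and 1.33, against means of 2.66 at 1 h and 3.02 at 1.5 h. The lower value was that of replicate 2, which stood apart. Without it the median over both treatments was -0.29.

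Cmpk2 with serum was 0.80, 1.57 and 1.70 on the 1 h arrays, 1.25, 0.81 and 0.73 on the 1.5 h arrays, 0.51 and 0.03 on the 3 h arrays and 0.29 on the 4 h array. Every serum array at 3 and 4 h lay below every earlier one. With OA it was 1.78, 1.05 and 1.27 on the 1 h arrays, 1.28, 2.29 and 1.34 on the 1.5 h arrays, 0.38, 1.00 and 0.87 on the 3 h arrays, and 1.24 and -0.60 on the 4 h arrays, where 1 array overlapped the earlier ones. The difference was -0.92 (SE 0.24, adjusted p = 0.102). Dhx58, a regulator of the RNA sensors, had -0.55 (SE 0.17, adjusted p = 0.157), and Eif2ak2 -0.76 (SE 0.25, adjusted p = 0.176). Ifi44 was furthest the other way (0.60, SE 0.41, adjusted p = 0.638), and Lgals3bp was the other gene above 0 (0.42, SE 0.29).

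Marker lists also differed over the same interval, in which 12% of all genes had an unadjusted p under 0.05 and 0.238% were called. All 5 platelet markers were higher at 3 and 4 h with an unadjusted p under 0.05 (median 1.06), and all 5 B cell markers were lower with an unadjusted p under 0.05 (median -0.75, 1 called), while monocyte markers had a median of 0.09. Their part in the ISG values was not tested.

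In the serum mice ISG levels were also lower late than early. The mean of 18 and 24 h minus that of 1 to 4 h was below 0 for 23 of 33 genes, against 51.5% of all genes, with a median of -0.38 against -0.02. The median was -0.21 without serum 24 h replicate 1, -0.65 without serum 24 h replicate 2 and -0.21 with median scaling. None was called (0.147% of all genes called), but 11 had an unadjusted p under 0.05, all lower, or 33.3% of the list against 9.87% of all genes and 6.35% for lower genes.

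Oasl1 with serum was 2.19, 2.86 and 3.83 at 1 h. Its 1.5 h values were 2.76, 3.46 and 3.25, its 3 h values were 2.42 and 2.49, and its single 4 h value was 3.31. It was 1.73 and 2.00 on the 18 h arrays and 1.79 and 1.79 on the 24 h arrays. All 4 late arrays lay below all 9 early arrays. The difference was -1.14 (SE 0.26, adjusted p = 0.095). Ifit3, a partner of Ifit1 and Ifit2, was 1.67, 2.48 and 3.27 at 1 h. Its 1.5 h values were 2.36, 2.68 and 2.29, its 3 h values were 1.60 and 1.55, and its single 4 h value was 2.36. It was 0.51 and 1.44 on the 18 h arrays and 0.12 and 1.11 on the 24 h arrays. Here too no late array reached an early one (-1.42, SE 0.37, adjusted p = 0.159). Rtp4 had -1.19 (SE 0.35, adjusted p = 0.221), and Herc6 was furthest the other way (0.83, SE 0.48, adjusted p = 0.566), which rests on serum 24 h replicate 2. Without that array it was -0.14.

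Neutrophil markers, which Oasl1 and Rtp4 followed across arrays, were lower late in serum for 8 of 8 genes with a median of -1.15, and monocyte markers for 7 of 9 with a median of -0.81. Their part in the result was not tested.

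In the OA mice the late minus early median was -0.04 over the ISGs, with 18 of 33 below 0, against 49.6% of all genes, and none was called (0.155% of all genes called). An unadjusted p under 0.05 was found for 4 genes, all lower, against 15.2% of all genes in both directions. Ifit3 (-0.84, SE 0.30, adjusted p = 0.222), Oasl1 (-0.59, SE 0.22, adjusted p = 0.226) and Ifih1 (-0.46, SE 0.19, adjusted p = 0.271) had the smallest p. Isg15 was furthest the other way (0.45, SE 0.48, adjusted p = 0.725), and without OA 18 h replicate 3 it was -0.10. The F tests over all times called no ISG within serum (lowest adjusted p 0.204 for Eif2ak2, 0.0437% of all genes called) or within OA (lowest 0.112 for Mx1, 0.135% of all genes called). At an unadjusted p under 0.05 they had 10 and 11 ISGs, against 12.8% and 17.9% of all genes.

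**Figure D5:**
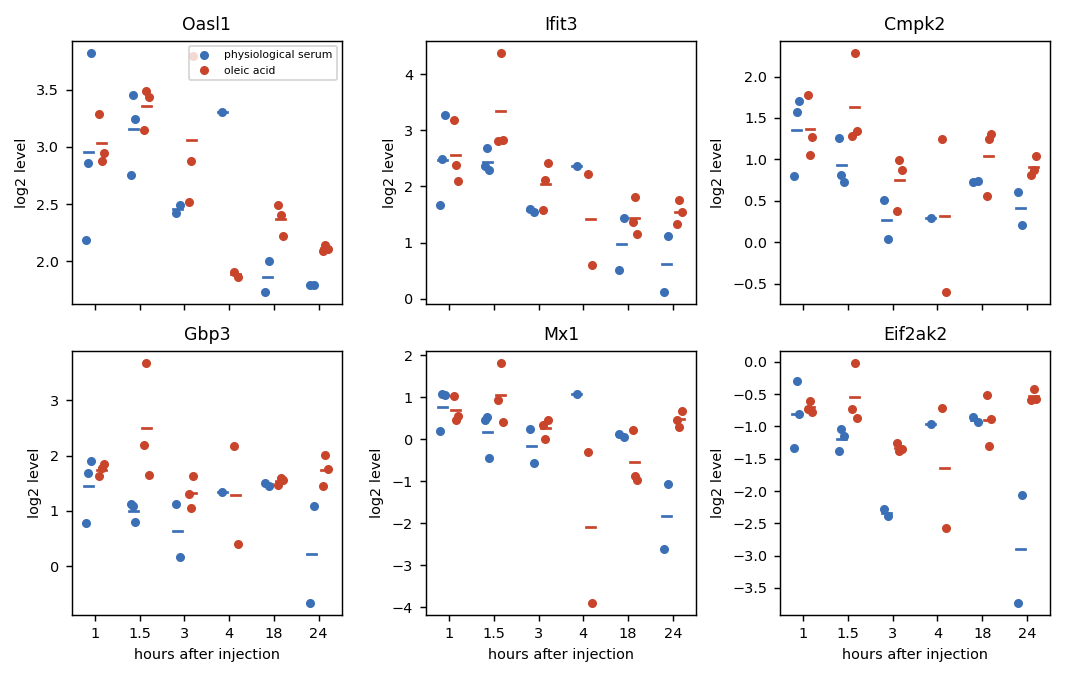
Log2 levels of 6 ISGs on every array by hours after injection, blue for serum and red for OA, with bars at group means. Oasl1 and Ifit3 are lower at 18 and 24 h than at 1 and 1.5 h, Cmpk2 is lower at 3 h than before, and Gbp3, Mx1 and Eif2ak2 have their lowest serum values at 24 h.

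The pathway around the ISGs was read from lists of other genes. Of 16 listed interferon genes 9 passed the filter on dim probes, and Ifnb1, the early type I interferon, was well above background on no array. At 24 h none of the 9 was called higher, and Ifna11 and Ifnk were called lower, with no OA array well above background for either. In the main scaling a bound of the kind described for Eif2ak2, which carries no SE, was 4.21-fold lower for Ifna11 and 1.83-fold lower for Ifnk. Their probes were well above background on 7 and 5 arrays in all.

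Of 9 receptor and JAK genes, 4 were called higher at 24 h: Ifnar2, a chain of the type I receptor (0.90, SE 0.30, adjusted p = 0.0327), Ifngr1 (1.30, SE 0.45, adjusted p = 0.0352), Il10rb (1.17, SE 0.38, adjusted p = 0.0305) and Jak1 (1.02, SE 0.38, adjusted p = 0.0477). Of 13 measured sensors and adaptors, 7 were called higher and 1 lower. The highest were Traf3 (1.53, SE 0.48, adjusted p = 0.027) and the DNA sensor Cgas (1.32, SE 0.35, adjusted p = 0.0197), and the lower 1 was the RNA sensor Tlr7 (-1.31, SE 0.43, adjusted p = 0.0313). Of 7 further STAT and IRF factors, 3 were called higher, with Irf8 at 1.44 (SE 0.45, adjusted p = 0.0275).

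Of 13 negative regulators, 7 were called higher at 24 h, led by Pias1, an inhibitor of STAT signalling (1.74, SE 0.42, adjusted p = 0.0168). Of 48 other ISGs measured, 16 were called higher and none lower, with a median difference of 0.97, and Ifi204 (1.87, SE 0.47, adjusted p = 0.0178) and Ifitm6 (2.12, SE 0.56, adjusted p = 0.0196) among them. Of 27 measured genes that lean to interferon gamma, 4 were called higher and the chemokine Cxcl9 lower (-1.55, SE 0.48, adjusted p = 0.0267). These calls share the arrays, the slide and the background of 31.5% with those of the 33 genes. In that background 15.6% of all genes were called higher and 15.9% lower.

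Outside 24 h, 2 genes of these lists were called. Irf2, a repressor of ISG transcription, was lower at 3 and 4 h than at 1 and 1.5 h (-1.25, SE 0.23, adjusted p = 0.0257). Socs3, an inhibitor of JAK kinases, was lower late than early in serum (-1.77, SE 0.33, adjusted p = 0.0389). The chemokine Cxcl10 was higher in value with OA at 3 h but was not called (2.67, SE 0.65, adjusted p = 0.62). Neither serum array was well above background, and the bound in the main scaling was 2.29-fold.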

How the data were processed

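Cy3-labelled RNA of 30 samples was hybridised to 1-colour Agilent arrays with 62976 spots. The deposited intensity values were made with Agilent Feature Extraction 10.5.1.1, per the submitters' processing notes; the processed signal column was used. A deposited table of log2 values of the same arrays served only as an alternative, since the sources used here do not say how it was corrected for background, scaled and centred.

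From the 55681 probes that are not controls, those well above background on at least 3 of 30 arrays were kept. Log2 signals were set to the 75th percentile of each array, and the probe with the highest mean stood for a gene. One limma model (version 3.58.1, R 4.3.3) with 12 groups was fitted to all 25210 genes, with 18 residual degrees of freedom, and p values were adjusted by Benjamini-Hochberg over all of them. With 1 to 3 arrays a group, the number of arrays limits the precision. Marker correlations used permutation tests, two-sided, and those of members with each other have none. The permutations treated all 30 arrays as exchangeable, so differences between groups or slides shared by gene and markers enter their p values. The fitting script was tested on simulated data.

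The members and lists were chosen with earlier results of these data known. Named genes were the members past the threshold (at most 8 per comparison by p), the 3 with the smallest p and the 1 furthest the other way in each comparison, and the pathway genes past the threshold or with the 2 smallest p of their list; other members are named to account for the set. The replicate numbers of serum and OA arrays did not pair: correlations of deviations ran from -0.592 to 0.559. Alternatives were other scalings, background correction, probe filters, probe averaging, the deposited values, slide and replicate blocks, and leaving out arrays. Some genes of the marker and pathway lists are not reported here by name.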

Additional observations from a re-analysis of the deposited data

How the results depend on the processing

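The 4 h median of the 33 differences moved from -0.68 to -0.11 with median scaling, -0.27 with quantile normalization, -0.20 with the authors' deposited values and -0.0098 without the 3 arrays that stood apart. The 24 h median of 0.81 became 0.21, 0.27 and 0.17 under the first 3 of these. The 10 calls at 24 h became 0 with slide as a fixed block, 7 with slide as a random block, 15 with normexp background correction and 1 without the arrays that stood apart, among 7, 5759, 10795 and 54 genes called in all. With replicate number as a block 7 members were called at 24 h, all 7 among the 10; the numbers do not pair the samples. At 3 and 4 h against 1 and 1.5 h, 1 member was called with median scaling and 3 with the deposited values, in place of 0, among 575 and 595 genes in all. Late against early in serum, 1 was called with quantile normalization, 2 with the deposited values and 1 with the filter at 15 arrays, in place of 0, among 139, 269 and 74 genes. The cause of these changes was not tested.

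Leaving out 1 array at a time, the 24 h comparison had 1 to 14 calls and the 4 h comparison 0 to 1. The 3 and 4 h against 1 and 1.5 h comparison had 0 to 4, late against early in serum 0 to 8, and the late minus early OA effect 0 to 1. They ran from 0 to 5, 0 to 2 and 0 to 1 in the F tests of the OA effect, of serum and of OA, and stayed at 0 in the other comparisons. The 4 and the 8 stood among 224 and 2277 genes called in all, the highest counts of the 3 F tests among 3519, 923 and 42, that of the late minus early OA effect among 1782, and the call at 4 h was 1 of 1. The highest counts came without serum 24 h replicate 2, except at 4 h, at 3 and 4 h and in the F test of OA, where they came without OA 4 h replicate 1. The 4 h median ran from -1.29 to -0.0098 and the 24 h median from 0.45 to 1.07. Isg15 late against early in OA ran from -0.099 without OA 18 h replicate 3 to 0.95, and Herc6 late against early in serum from -0.14 without serum 24 h replicate 2 to 1.79. Without the only serum 4 h array, comparisons that use it have no value.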
